A study of Mus musculus with 6 samples.

Results

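Messenger RNA of 10 genes of the Bcl2 family was followed in mouse kidneys with and without a conditional deletion of transferrin receptor 1 (TfR1, gene Tfrc). The genes were chosen by symbol, as pro- and anti-apoptotic members of the family, and were all present among the 24422 gene symbols of the count tables, of which 19985 had at least 1 read. Poly-A RNA from whole kidneys at postnatal day 13 was sequenced in 6 libraries, 3 labelled Control and 3 labelled TfR1KO;Six2Cre (TfR1 knockout below), described as biological replicates. All animals were of strain C57BL/6 and on a diet with 220 ppm iron. Control kidneys carried the genotype label wild type and knockout kidneys the label Tfr1f/f;SixCre, a floxed receptor allele with a Cre recombinase that is active in nephron progenitors. Collecting duct, stroma and vessels do not descend from these progenitors, and by the study's description some nephron cells escape deletion, so the knockout libraries hold RNA of undeleted cells too. In such bulk samples, fewer cells of a type and less RNA per cell cannot be told apart.

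The family controls the mitochondrial route to cell death. The pore formers Bax and Bak1 open the outer mitochondrial membrane, the guardians Bcl2, Bcl2l1 (Bcl-xL) and Mcl1 hold them in check, and the BH3-only proteins either occupy the guardians or activate the pore formers directly. Opening of the membrane releases cytochrome c, which starts the caspase cascade. Several members are regulated after transcription, by cleavage, phosphorylation or protein turnover, and the balance between the classes is known to set how readily tubule cells of an injured kidney die.

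Messenger RNA of both pore formers and of 4 of the other 8 members was higher in TfR1 knockout than in Control kidneys, and the BH3-only gene Pmaip1 changed most. With DESeq2 at an adjusted p under 0.05, 6 of the 10 members were higher (Pmaip1, Bbc3, Bcl2l1, Mcl1, Bak1 and Bax), 1 was lower (Bid) and 3 did not pass. Of all 16509 genes tested, 7.74% were higher and 7.18% lower by this rule. Pmaip1 and Bbc3 also reached a 2-fold change, and 0 members were lower by that much, against 4.41% and 4.46% of all genes. By edgeR's quasi-likelihood test only Pmaip1 passed, with 1 member higher and 0 lower against a background of 3.22% and 2.8%. Other size factors in DESeq2 moved the split of 6 higher and 1 lower to 6 and 2 (TMM), 5 and 3 (upper quartile) and 4 and 2 (total counts), and leaving out a library gave 1 to 5 higher and 0 to 2 lower, with the fewest higher without Control replicate 1. The 3 knockout values lay above the 3 Control values in 6 members and below them in 3, where 16.9% of all genes were separated upward and 16.9% downward. The median log2 fold change was 0.55 over the members and 0.0071 over all genes tested.

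**Figure D1:**
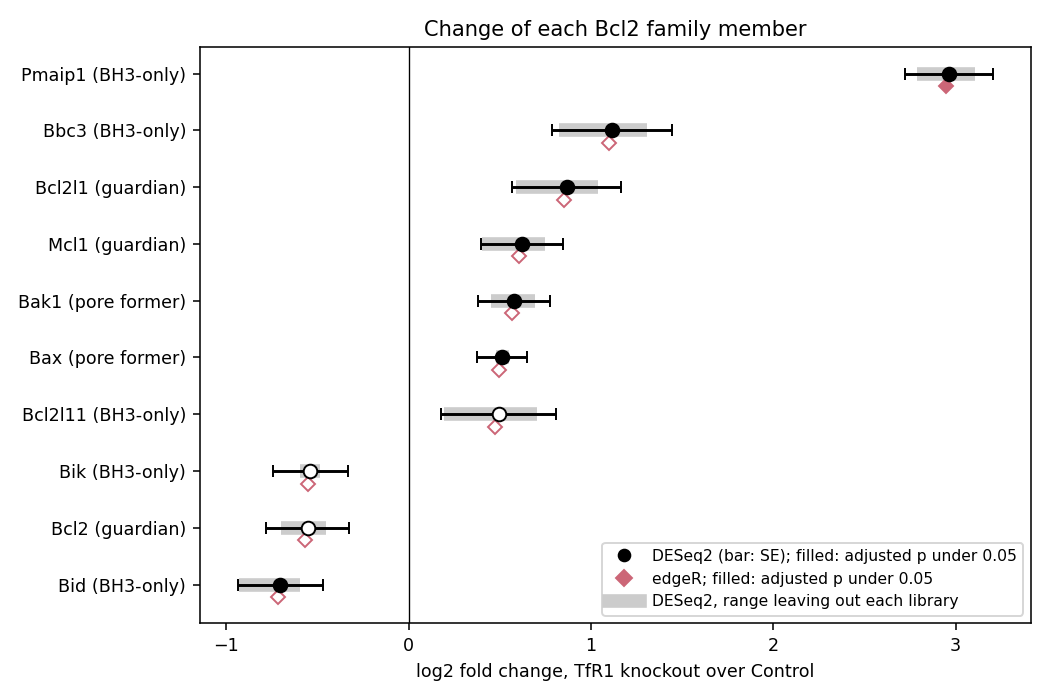
Log2 fold change of each member, TfR1 knockout over Control, from DESeq2 (circles, bars: standard error) and edgeR (diamonds), with the range of DESeq2 values when each library is left out in turn (grey). Filled symbols passed an adjusted p under 0.05. Pmaip1 stands at 2.96 and is the member filled for both tests, and the other called members lie between -0.70 and 1.12.

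Total gene counts ran from 16591156 to 22898008 per library. The targeted gene did not separate the groups, since Tfrc had 5534, 6485 and 3667 normalized counts in Control and 6976, 4045 and 5898 in knockout libraries (log2 fold change 0.11, SE 0.29, DESeq2 adjusted p 0.853), so its count does not check the labels. By the study's description only part of the gene is floxed, and a count per gene includes reads of exons outside that part. Reads of the floxed exons were not looked at separately. Without Control replicate 3 the log2 fold change of Tfrc was -0.095, and without knockout replicate 1 it was -0.072. Markers of the nephron segments, podocytes, endothelium and stroma were present in every library. Control replicate 1 stood apart in markers of the adrenal cortex, with 9334 normalized counts of Star against 134 to 1049 elsewhere, and the values without it are given beside each member.

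Several lists of composition markers moved with genotype, and others did not. Calls in this paragraph are those of DESeq2 unless edgeR is named. All 4 markers of the thick ascending limb were lower in the knockout, with summed normalized counts of 45672 to 93083 in Control and 13059 to 24876 in knockout libraries. Both markers of the distal convoluted tubule were lower as well (10897 to 21871 against 648 to 1637), and 3 of 5 proximal tubule markers were, although the sums of that list overlapped (43757 to 96486 against 31552 to 47408). Control replicate 3 gave the low end of each of these Control ranges. Control replicates 1 and 2 had 84637 and 93083 (thick ascending limb), 19412.5 and 21871 (distal convoluted tubule), and 96486 and 95800.5 (proximal tubule). By edgeR 3 of 4 thick ascending limb markers, both distal convoluted tubule markers and 1 of 5 proximal tubule markers were lower. The stroma sum of Control replicate 3 was 90863, against 47297 and 45706 in Control replicates 1 and 2. In the collecting duct list, 1 of 4 genes was higher, Aqp2, which made up most of the list's sum in the knockout (17805 to 50719 of 23292 to 54746, against a sum of 5699.6 to 10271 in Control), and the other 3 had log2 fold changes of 0.21 to 0.24 and did not pass. In the macrophage list, 4 of 7 genes were higher and the sums were 1981 to 2922 in Control and 5417 to 6324 in knockout libraries. Of 3 neutrophil markers tested 2 were higher by DESeq2 and 0 by edgeR, with overlapping sums (61.0 to 243 against 201 to 737). Lymphocyte markers had sums of only 83.6 to 125 in Control and 7.68 to 62.6 in knockout libraries, and the globin genes Hbb-b1 and Hba-a1 were at 0 throughout. In the podocyte list 0 of 3 genes passed, and in the endothelium list 0 of 3. Of 4 stroma markers 1 was lower, Col3a1 (DESeq2 adjusted p 0.0249, edgeR adjusted p 0.134). Of 2 liver markers 1 was higher, Alb (log2 fold change 3.91, DESeq2 adjusted p 3.70e-08, edgeR adjusted p 0.0265, limma-voom adjusted p 0.0823). The other, Apoa2, had a log2 fold change of -0.78 and did not pass (DESeq2 adjusted p 0.231). The part of these shifts in the members' values was not tested.

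Among the BH3-only genes, Pmaip1 changed most. Pmaip1 (chromosome 18, 66618258 to 66625204, plus strand, mm9) encodes Noxa, which binds Mcl1 and is known to be transcribed in response to p53 and to cellular stress. Its normalized counts were 90.7, 90.0 and 99.0 in the 3 Control libraries and 705, 898 and 578 in the 3 knockout libraries. The Control values were tightly grouped, and the lowest knockout value was 5.84 times the highest Control value. The mean rose 7.80-fold, from 93.2 ± 5.03 to 727 ± 161 (SD, n = 3 each), with a log2 fold change of 2.96 (SE 0.24, DESeq2 adjusted p 5.48e-31, edgeR adjusted p 0.0015). Pmaip1 ranked 14 of 16509 genes by p, and 1.66% of tested genes had a larger absolute log2 fold change. Its call was kept in 15 of 15 alternative settings, and the log2 fold change ranged from 2.79 to 3.11 when each library was left out, at 2.94 without Control replicate 1. These values rested on 92 to 110 reads per Control library and 611 to 709 per knockout library.

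The genes most like Pmaip1 across the 6 libraries were sought among 12113 genes whose mean normalized count reached 100, by Pearson's r of log2(normalized count + 1). They were Prkx (r 0.999), a protein kinase, Iqgap1 (0.999), a cytoskeletal scaffold, F3 (0.999), the tissue factor that starts coagulation, Plet1 (0.999), a surface protein, and Trib3 (0.997), a pseudokinase known from the integrated stress response. An r over 0.95 was found for 275 genes. With 3 libraries a group, such values mostly restate that a gene differed between the groups while varying little within them, and they are given as a description.

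Bbc3 (chromosome 7, 16894965 to 16903554, plus strand) encodes Puma, a BH3-only protein that binds all guardians and is a known p53 target. It had 85.7, 90.9 and 127 normalized counts in Control and 186, 302 and 170.3 in knockout libraries. The groups did not overlap, and knockout replicate 2 was the highest. The mean rose 2.17-fold, from 101 ± 22.5 to 219 ± 71.9 (SD, n = 3 each), with a log2 fold change of 1.12 (SE 0.33, DESeq2 adjusted p 0.00817, edgeR adjusted p 0.0757). The DESeq2 adjusted p was 0.107 without Control replicate 1, 0.094 without Control replicate 2 and 0.0591 without knockout replicate 2, where the log2 fold change was 0.82.

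Bid moved the other way. Bid (chromosome 6, 120841948 to 120866871, minus strand) links the death receptors to mitochondria, since caspase 8 cleaves it into its active form. Its normalized counts were 1050.4, 1169.8 and 961 in Control and 554, 846 and 557 in knockout libraries. All knockout values lay below the Control values, with knockout replicate 2 nearest to them. The mean of 1060.5 ± 105 in Control was 1.63-fold that of 652 ± 168 in the knockout (SD, n = 3 each, with a log2 fold change of -0.70, SE 0.24, DESeq2 adjusted p 0.0243, edgeR adjusted p 0.0709). The DESeq2 adjusted p was 0.14 without Control replicate 1, 0.186 without Control replicate 2, 0.0858 without knockout replicate 1 and 0.177 without knockout replicate 3, and it was 1.67e-05 without knockout replicate 2 (log2 fold change -0.93). The exons of Bid share 628 bases with those of Bcl2l13 on the opposite strand, and reads there cannot be told apart because the strand setting of the counting is not given in the sources used here.

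Bik and Bcl2l11 did not pass the DESeq2 threshold. Bik (chromosome 15, 83357292 to 83375065, plus strand), a BH3-only protein of the endoplasmic reticulum, had 200.4, 226 and 219 normalized counts in Control and 137, 159 and 149 in knockout libraries. The groups were separated and narrow, with means of 215 ± 13.3 and 148 ± 10.7 (SD, n = 3 each, with a log2 fold change of -0.54, SE 0.21, DESeq2 adjusted p 0.0556, edgeR adjusted p 0.127). It passed in 4 of 15 alternative settings, and in 0 of the 6 that left out a library (DESeq2 adjusted p 0.218 without Control replicate 1). Bcl2l11 (chromosome 2, 127951774 to 127988283, plus strand) encodes Bim, which acts on guardians and pore formers alike, and had 449, 372 and 587 normalized counts in Control and 454, 913 and 616 in knockout libraries. The groups overlapped and only knockout replicate 2 was well above the Control values (469 ± 109 against 661 ± 233, SD, n = 3 each, with a log2 fold change of 0.49, SE 0.32, DESeq2 adjusted p 0.312, edgeR adjusted p 0.321). Bcl2l11 passed in 0 of 15 alternative settings (DESeq2 adjusted p 0.562 without Control replicate 1).

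**Figure D2:**
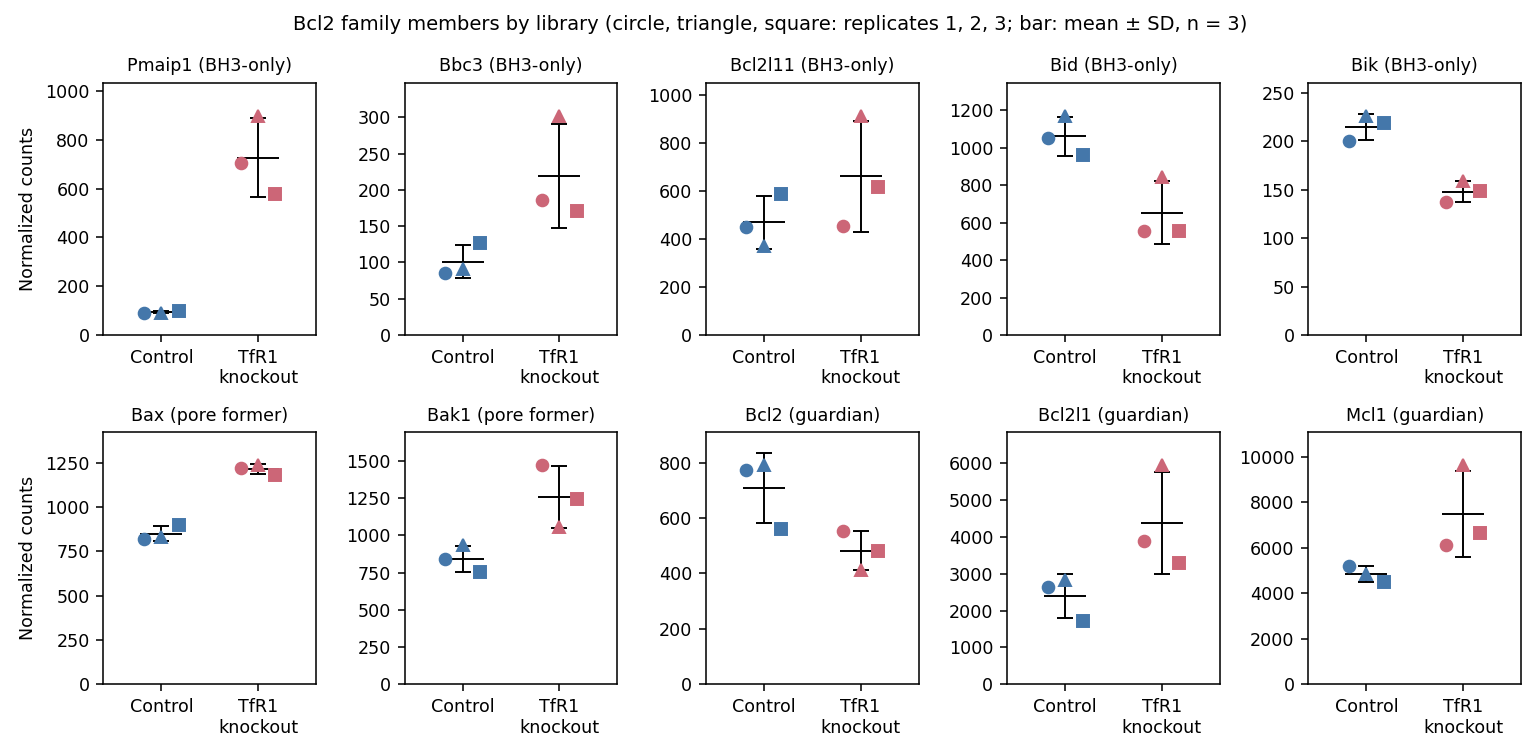
Normalized counts of each member in every library, in panels ordered by role with vertical axes that start at 0. Circles, triangles and squares are replicates 1, 2 and 3, and bars give the mean ± SD (n = 3). Pmaip1 rises from about 90 to between 578 and 898, Bax shows 2 narrow separate groups, and knockout replicate 2 is the highest library in 6 members.

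Both pore formers were called higher by DESeq2, and neither passed by edgeR. The call was kept in 9 of 15 alternative settings for Bax and in 5 of 15 for Bak1. Bax (chromosome 7, 52717065 to 52722268, minus strand) had 819, 833 and 898 normalized counts in Control and 1221, 1236 and 1181 in knockout libraries. With median-ratio size factors it was the steadiest of the members in the knockout group, with a coefficient of variation of 2.36% there and 4.94% in Control. The lowest knockout value was 1.32 times the highest Control value. These spreads depend on the scaling, and the raw counts were 993, 917 and 834 in Control and 1228, 966 and 1248 in knockout libraries. The mean rose 1.43-fold, from 850.0 ± 42.0 to 1213 ± 28.7 (SD, n = 3 each, with a log2 fold change of 0.51, SE 0.14, DESeq2 adjusted p 0.00292). By edgeR its adjusted p was 0.05003, just above the threshold, and the DESeq2 adjusted p was 0.145 without Control replicate 1, 0.12 without Control replicate 2 and 0.0549 without knockout replicate 3. With size factors from total counts it was 0.0582.

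Bak1 (chromosome 17, 27156755 to 27165954, minus strand), which like Bax forms pores but resides on mitochondria in healthy cells, had 842, 933 and 757 normalized counts in Control and 1472, 1058 and 1247 in knockout libraries. The groups did not overlap, though knockout replicate 2 was only 1.13 times the highest Control value. The mean rose 1.49-fold, from 844 ± 87.9 to 1259 ± 207 (SD, n = 3 each, with a log2 fold change of 0.58, SE 0.20, DESeq2 adjusted p 0.0298, edgeR adjusted p 0.0879). Of the 6 fits that left out a library, 1 kept the call, that without knockout replicate 2 (DESeq2 adjusted p 0.00632). The others gave 0.191 and 0.0867 without Control replicates 1 and 2, 0.103 without Control replicate 3, and 0.111 and 0.138 without knockout replicates 1 and 3. A stretch of 177 exon bases overlaps Ggnbp1 on the opposite strand.

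Since several members are known targets of the transcription factor p53, the 250 bases before each annotated start were searched for the p53 half-site, a palindromic motif read the same on both strands, and for the full site, 2 half-sites at most 13 bases apart. RefSeq promoters (GRCm38.p6, another build than that of the counts) were used for 8 of the 10 members, in 13 windows, and Pmaip1 and Bik were not searched. A half-site stood in 1 of these 8, Bax, and a full site in 0. Over all promoters searched, 7.13% of 32851 windows and 8.2% of 27025 genes held a half-site, and 0.0639% of windows a full site. Of the 15 genes of the p53 pathway list with a promoter, 6 held a half-site and 1, Cdkn1a, a full site. The stretch at Bax is shown with those at Mdm2 and Cdkn1a as examples from the pathway list. Ccng1 and Aen were also higher in the knockout and held a half-site, and are not shown. Trp53 and Sesn1 held a half-site too and did not pass (DESeq2 adjusted p 0.656 and 0.259). Sesn2, Gdf15, Btg2, Eda2r and Plk2 were higher by DESeq2, with no half-site in the windows searched. Capitals mark the half-sites, with 30 bases on either side, written 5′ to 3′ along the gene's strand.
Bax, chr7:45467060-45467129, minus strand, half-site 201 to 192 bases before the start: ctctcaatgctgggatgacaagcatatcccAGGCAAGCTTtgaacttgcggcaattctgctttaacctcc
Mdm2, chr10:117710905-117710974, minus strand, half-site 186 to 177 bases before the start: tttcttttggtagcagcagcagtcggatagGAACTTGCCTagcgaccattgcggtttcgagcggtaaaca
Cdkn1a, chr17:29090876-29090967, plus strand, half-sites 73 to 42 bases before the start and 12 bases apart: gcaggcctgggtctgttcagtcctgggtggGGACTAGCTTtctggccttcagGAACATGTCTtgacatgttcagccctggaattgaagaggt
A match describes the letters in this window and is neither a measured binding site nor a cause, and a window without one says only that these letters are not in it.

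Of the guardians, Bcl2l1 and Mcl1 were called higher by DESeq2 and Bcl2 had a lower mean but did not pass, with no guardian passing by edgeR. Bcl2l1 (chromosome 2, 152593052 to 152657464, minus strand) had 2655, 2828 and 1720.1 normalized counts in Control and 3895, 5948 and 3299 in knockout libraries. All knockout values were above the Control values, with knockout replicate 2 the highest and Control replicate 3 the lowest. The mean rose 1.82-fold, from 2401 ± 596 to 4381 ± 1389.8 (SD, n = 3 each, with a log2 fold change of 0.87, SE 0.30, DESeq2 adjusted p 0.0294, edgeR adjusted p 0.106). The DESeq2 adjusted p was 0.086 without Control replicate 1, 0.101 without Control replicate 3 and 0.161 without knockout replicate 2, where the log2 fold change was 0.59. The gene makes a long protective and a short death-promoting form by splicing, and counts per gene do not separate them.

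Mcl1 (chromosome 3, 95462643 to 95467099, plus strand), a guardian with a short-lived protein and the partner of Noxa, had 5187, 4864 and 4494 normalized counts in Control and 6104, 9626 and 6665 in knockout libraries. The groups were separated, and knockout replicate 2 was again the highest. The mean rose 1.54-fold, from 4848 ± 347 to 7465 ± 1893 (SD, n = 3 each, with a log2 fold change of 0.62, SE 0.22, DESeq2 adjusted p 0.0387, edgeR adjusted p 0.113). Without knockout replicate 2 the log2 fold change was 0.40 (DESeq2 adjusted p 0.0849), the call was also lost without Control replicates 1, 2 and 3 (0.137, 0.179 and 0.116) and without knockout replicate 3 (0.0815), and it was kept without knockout replicate 1 (0.00987).

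Bcl2 (chromosome 1, 108434755 to 108610851, minus strand), the founding guardian, had 774, 791 and 562 normalized counts in Control and 554, 413 and 481 in knockout libraries. The groups were separated by a small step, since the lowest Control value was 1.01 times the highest knockout value. The means were 709 ± 128 and 483 ± 70.3 (SD, n = 3 each, with a log2 fold change of -0.55, SE 0.23, DESeq2 adjusted p 0.0793, edgeR adjusted p 0.123). It passed in 3 of 15 alternative settings. The DESeq2 adjusted p was 0.351, 0.348 and 0.0104 without Control replicates 1, 2 and 3, and 0.0458, 0.255 and 0.246 without knockout replicates 1, 2 and 3. Its exons share 497 bases with the transcript D630008O14Rik on the opposite strand.

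A ratio of 2 genes' reads within a library does not depend on how libraries are scaled, and the ratio of Bax to each guardian was taken as a description, with no test. It is a ratio of reads and not of molecules, because the genes differ in length. Bax to Bcl2 was 1.06, 1.05 and 1.598 in Control and 2.20, 2.99 and 2.45 in knockout libraries. The groups did not overlap, and the mean went from 1.24 ± 0.31 to 2.55 ± 0.40 (SD, n = 3 each), 2.06 times as high. That separation follows from those of Bax upward and Bcl2 downward given above, and is not a further result. Bax to Bcl2l1 was 0.31, 0.29 and 0.52 in Control and 0.31, 0.21 and 0.36 in knockout libraries, and Bax to Mcl1 was 0.16, 0.17 and 0.20 against 0.20, 0.13 and 0.18. Both of these overlapped, so the separated ratio was that to Bcl2, whose mean was lower in the knockout but did not pass (DESeq2 adjusted p 0.0793).

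**Figure D3:**
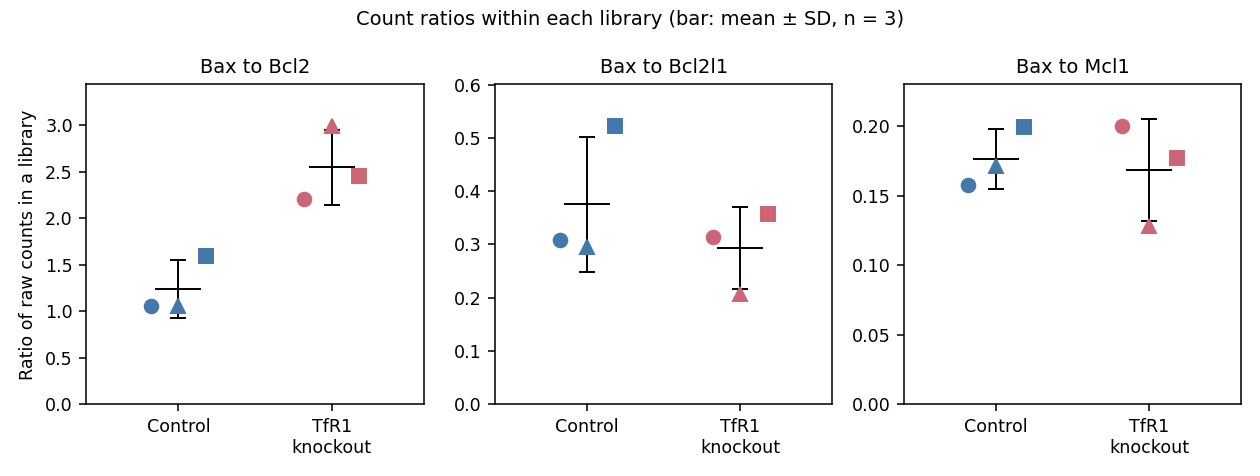
Ratio of raw read counts of Bax to those of Bcl2, Bcl2l1 and Mcl1 within each library, with mean ± SD (n = 3) per group and vertical axes that start at 0. Bax to Bcl2 lies between 1.05 and 1.598 in Control and between 2.20 and 2.99 in knockout libraries, and the other ratios overlap.

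Levels of different genes were compared as normalized counts per kilobase of annotated exon. In Control kidneys Mcl1 was highest at 1391 ± 99.5 (SD, n = 3), followed by Bax at 635, Bcl2l1 at 507, Bak1 at 351, Bid at 299, Bik at 228, Bcl2 at 98.6, Bcl2l11 at 58.4, Bbc3 at 50.4 and Pmaip1 at 35.2. The ranges of neighbours in this order did not overlap across the 3 libraries, except for Bcl2l1 and Bak1, Bak1 and Bid, and Bcl2l11 and Bbc3. In the knockout Mcl1 still led at 2142 ± 543, and Bcl2l1 (925) and Bax (906) came next with overlapping values, ahead of Bak1 (523). Pmaip1 went from rank 10 to rank 5, at 275 ± 60.9 per kilobase, and Bcl2 from rank 7 to rank 10, at 67.2 ± 9.78. From Pmaip1 down, each pair of neighbours in the knockout order overlapped. When the longest transcript replaced the union of exons, the level of Bcl2l1 in Control became 993 and passed that of Bax at 810.3, and Bid at 439 passed Bak1, so these orders depend on which transcripts the kidney uses.

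**Figure D4:**
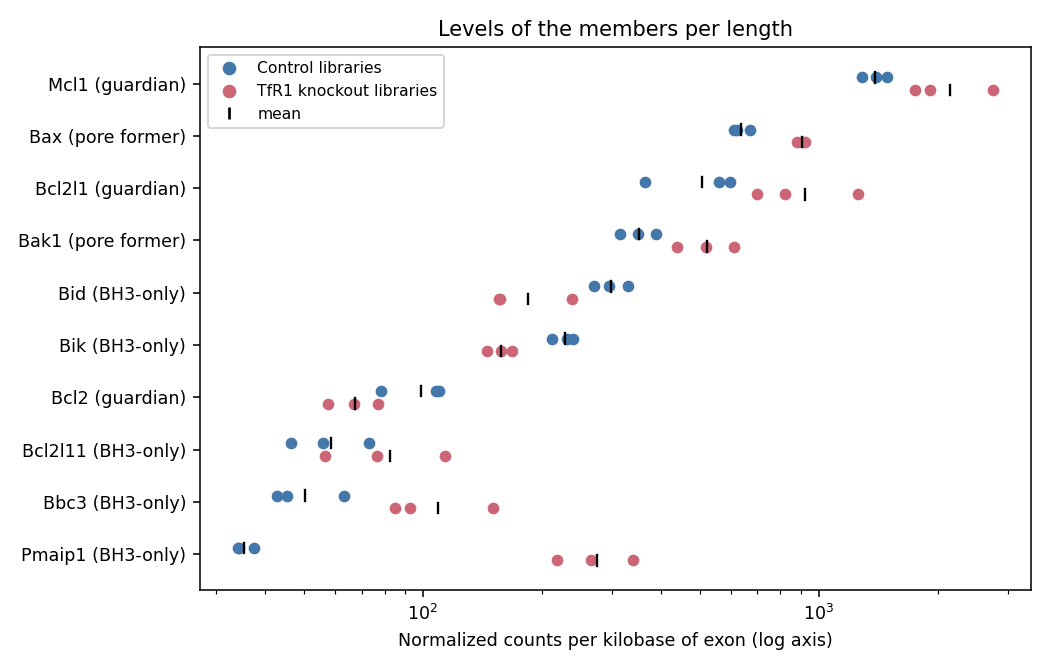
Normalized counts per kilobase of annotated exon for each member, on a log axis, with 1 point per library and a black tick at the group mean. Members are ordered by their Control level, from Mcl1 at 1391 to Pmaip1 at 35.2. The knockout points of Pmaip1 sit at 218 to 339, above those of Bcl2, Bcl2l11 and Bbc3.

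Genes that surround the members in the cell death pathways were counted by lists written from general knowledge, against the same backgrounds of 7.74% higher and 7.18% lower by DESeq2. Of 14 other Bcl2 family genes tested, 2 were higher and 0 lower (median log2 fold change 0.39). These were Bcl2l14, at 65.1, 73.6 and 104 normalized counts in Control and 132, 177 and 158 in the knockout (log2 fold change 0.94, DESeq2 adjusted p 0.0146, edgeR adjusted p 0.0902), and Bcl2l13, a mitochondrial protein known as a receptor for mitophagy, at 0.56 (DESeq2 adjusted p 0.0469, edgeR adjusted p 0.0945). By edgeR 0 of the 10 tested there passed. The DESeq2 count was 0 without Control replicate 1 or 2 or without knockout replicate 2 or 3. The mitophagy gene Bnip3 had a log2 fold change of 0.80 and did not pass (DESeq2 adjusted p 0.0891), and the BH3-only genes Bad and Bmf were at -0.25 and -0.073 (DESeq2 adjusted p 0.389 and 0.893).

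In the machinery downstream of the mitochondrial pore, DESeq2 calls were about as frequent as over all genes (7.74% higher and 7.18% lower). Of 19 genes for cytochrome c, the apoptosome, caspases, nucleases and caspase inhibitors, 1 was higher and 1 lower, with a median log2 fold change of -0.036. Both belong to the inhibitor of apoptosis family. Birc3, an ubiquitin ligase of NF-kB signalling, was higher, at 203, 168 and 318 normalized counts in Control and 446, 489 and 429 in the knockout (log2 fold change 0.99, DESeq2 adjusted p 0.00603, edgeR adjusted p 0.0682), and lost its call without Control replicate 1 or 2 (DESeq2 adjusted p 0.0922 and 0.0792). Birc5 (survivin), which is also a gene of mitosis and marks dividing cells, was lower, at 687, 744 and 788 against 457, 338 and 386 (log2 fold change -0.91, DESeq2 adjusted p 7.18e-05, edgeR adjusted p 0.0249). Without knockout replicate 1 the count of lower genes was 2. Casp6 and Casp9 had log2 fold changes of -0.42 and 0.22, and Apaf1, the core of the apoptosome, 0.33, and they did not pass (DESeq2 adjusted p 0.0861, 0.311 and 0.322).

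In the death receptor pathway 3 of 11 genes tested were higher and 0 lower by DESeq2 (median log2 fold change 0.30), and 2 were higher by edgeR. Tnfrsf10b, the receptor for the ligand Trail, had 175, 173 and 215 normalized counts in Control and 458, 408 and 438 in the knockout, a 2.32-fold rise with a log2 fold change of 1.22 (SE 0.19, DESeq2 adjusted p 3.37e-08, edgeR adjusted p 0.0142). Casp8, which cleaves Bid, had 613, 614 and 714 in Control and 981, 1075 and 969 in the knockout (log2 fold change 0.64, SE 0.16, DESeq2 adjusted p 0.00109, edgeR adjusted p 0.0383). For both the groups were well apart. Tnfrsf1b, a receptor for tumour necrosis factor that lacks a death domain and is found on immune cells, stood at 1.00 (DESeq2 adjusted p 0.0124, edgeR adjusted p 0.0882), beside the higher macrophage markers given above. Without Control replicate 1 or 2 the count was 1, Tnfrsf10b, since Casp8 then had DESeq2 adjusted p of 0.0788 and 0.0673. Tnfrsf1b also lost its call without knockout replicate 1 or 3 (0.0739 and 0.0673, DESeq2).

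In the p53 pathway list 11 of 19 genes were higher and 0 lower by DESeq2, 10 of them by at least 2-fold, and 9 were higher by edgeR (median log2 fold change 1.11). The largest changes were in Eda2r, a receptor of the tumour necrosis factor family (4.15, SE 0.33), Gdf15, a secreted stress cytokine (3.34, SE 0.52), Cdkn1a, the cell cycle inhibitor p21 (3.23, SE 0.27), and Btg2, an antiproliferative gene (2.42, SE 0.41), all as log2 fold changes with edgeR adjusted p of 0.00121, 0.0235, 0.00204 and 0.0246. Gdf15 rested in part on knockout replicate 1 (2323 normalized counts against 684 and 623 in the other two), and without it the log2 fold change was 2.45, below the 3.36 of Cdkn1a. Mdm2, the ubiquitin ligase that degrades p53 and is itself a target, had 1102, 989.8 and 1014 normalized counts in Control and 1449, 2103 and 1689 in the knockout (log2 fold change 0.75, SE 0.20, DESeq2 adjusted p 0.00225, edgeR adjusted p 0.0389), and had a DESeq2 adjusted p of 0.0577 without Control replicate 2. The transcript of p53 itself, Trp53, had 935, 917 and 1081 in Control and 1166, 869 and 1246 in the knockout. Its values overlapped and did not pass (log2 fold change 0.16, SE 0.21, DESeq2 adjusted p 0.656). Protein level and activity of p53 were not measured here.

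**Figure D5:**
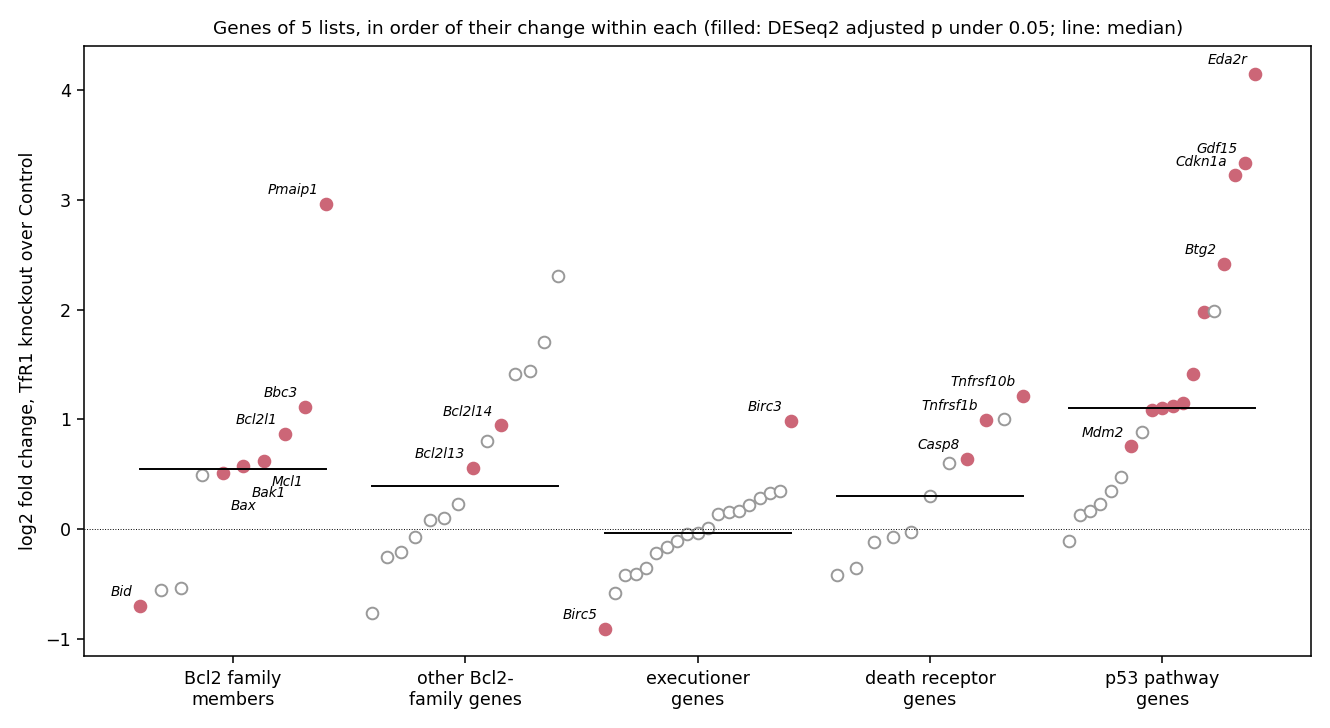
Log2 fold change, TfR1 knockout over Control, of each tested gene in 5 lists, sorted within a list, with a line at each list's median. Filled points passed a DESeq2 adjusted p under 0.05. They are labelled, except for some of the p53 pathway list, among them Ccng1, Aen, Sesn2 and Plk2. The median is 1.11 in the p53 pathway list, 0.55 over the members and -0.036 over the executioner genes.

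The spread within the knockout group was uneven across members. Knockout replicate 2 was the highest of the 6 libraries for Bax, Bbc3, Pmaip1, Bcl2l11, Bcl2l1 and Mcl1 and the lowest for Bcl2. It also had the smallest size factor, 0.782, against 0.929 to 1.21 in the other libraries. For Bax its lead was small (1236 against 1221 in knockout replicate 1), and its raw count of 966 was the lowest of the knockout group. The share of all genes highest in this library was not counted. Control replicate 3 was the lowest library for Bak1, Bcl2l1 and Mcl1. In Control the coefficient of variation ran from 4.94% for Bax to 24.8% for Bcl2l1, and in the knockout from 2.36% for Bax to 35.2% for Bcl2l11.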

How the data were processed

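The authors deposited raw counts of reads per gene, with no normalization, made from single-end poly-A libraries. Per the submitters' processing notes the tools were CASAVA 1.8.2, Trimmomatic, TopHat2 2.0.11 and HTSeq with the mm9 build, and uniquely mapped reads were kept. The counting mode and strand setting are not given in the sources used here. Groups and replicate numbers came from the sample labels. The members and all lists were chosen with earlier results of these data known. DESeq2 1.42.0 (R 4.3.3), which the study names, was fitted to all 24422 genes with median-ratio size factors and a Wald test, and p-values were adjusted by Benjamini and Hochberg over the 16509 genes left by independent filtering (lowest mean normalized count 3.51). Outlier filtering gave 29 genes no p. A call was an adjusted p under 0.05. edgeR 4.0.16 (quasi-likelihood test, TMM factors, 15308 genes) is given beside it, and limma 3.58.1 with voom was an alternative, with other size factors, other low-count filters, shrunken fold changes, the replicate number as a block, and each library left out. All 10 members passed the filters on low counts. Named genes are the members, Tfrc, Trp53, Mdm2, Cdkn1a, up to 4 called genes per list with the largest change, and the 5 genes most like the member of smallest p. Bad, Bmf, Bnip3, Apaf1, Casp6, Casp9, Ccng1, Aen, Sesn1, Sesn2, Plk2, the marker genes and the overlapping transcripts were named after their values were seen. Coordinates are those of the NCBIM37 (mm9) annotation, and promoters are RefSeq's for GRCm38.p6. The code was tested on simulated data. With 3 libraries a group, p-values measure the spread between these libraries. Total counts were 16591156 to 22898008. For Pmaip1 in Control and for Bik, both with few reads, the counting error is of the order of that spread. For Bbc3, also with few reads, the spread was wider (coefficient of variation 22.2% in Control and 32.8% in the knockout).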

Additional observations from a re-analysis of the deposited data

How the results depend on the processing

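Over 150 combinations of a member and an alternative setting, 104 kept their direction and side of the threshold, 39 lost a call, 7 gained one and 0 changed sign. Pmaip1 kept its call in all 15 settings, and Cdkn1a and Tnfrsf10b in all 14 run for them. Members called higher numbered 6 by DESeq2, 1 by edgeR and 2 by limma with voom (Pmaip1 and Bax), and 1 to 5 when a library was left out. Those called lower numbered 1, and 0 by edgeR and limma, 2 with TMM or total-count size factors or after edgeR's count filter, 3 with upper-quartile factors, and 0 to 2 without 1 library. At 2-fold, 2 were higher, against 1 by edgeR, limma or total-count factors and 1 to 3 without 1 library. For the other Bcl2 family genes the 2 higher calls became 0 by edgeR and limma, 1 with total-count or upper-quartile factors or without independent filtering, and 0 to 3 without 1 library, while the 0 lower calls became 0 to 1. Executioner genes higher numbered 1, against 0 by edgeR and 0 to 1 without 1 library, and those lower 1 to 2. Death receptor genes higher ranged from 1 to 4 without 1 library. Total-count factors moved the median of all genes to -0.098 on the log2 scale. The log2 fold change of Tfrc ranged from -0.095 to 0.30 without 1 library and changed sign without Control replicate 3 (-0.095) and TfR1 knockout replicate 1 (-0.072). The cause was not tested.

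Same-numbered libraries did not deviate together (r of -0.038, 0.055 and 0.090 over 15303 genes), so the numbers were not taken as pairs. With the replicate block 2 of 10 member calls changed, Bax (DESeq2 adjusted p 0.102) and Bak1 (0.0869), leaving 4 higher and 1 lower, and the other Bcl2 family genes had 0 higher and 1 lower. Over all genes the calls numbered 2463 by DESeq2, 921 by edgeR, 941 by limma and 2172 with the replicate block, and 1239 to 3205 without 1 library. Levels per kilobase over the longest transcript were 810.3 and 1156 for Bax, 993 and 1812 for Bcl2l1, 439 and 270.1 for Bid and 93.2 and 131 for Bcl2l11, in Control and knockout. The 3 libraries a group and the mixed cells of a whole kidney limit what these counts resolve.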
